A study of Mus musculus with 2 samples.

Results

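Melanotropes of the pituitary intermediate lobe were examined in single-cell 3′ RNA libraries made on the 10x Chromium platform (v2 reagents) from whole pituitary glands of C57BL/6 male mice, 7 weeks old and housed singly. Glands were pooled by 3 before enzymatic dispersal, and each of the 2 pools gave 1 library, so cells of a library cannot be traced to a mouse. The labels name no treatment and give 1 condition, and cell classes are compared inside each pool. Melanotropes were chosen by a rule on measured values: at least 250 genes detected, at most 20% of unique molecular identifiers (UMIs) from mitochondrially encoded genes, Pomc above 20% of all UMIs, at least 3 Pcsk2 UMIs, and Gh and Prl each under 10%. The rule took 225 of 13565 kept barcodes, 100 from library 1 and 125 from library 2. Their share was 1.54% of the barcodes kept in library 1, with an exact 95% binomial interval from 1.25 to 1.87%, and 1.77% of those in library 2, from 1.48 to 2.11%. This is a mean of 1.65 ± 0.165% (SD, n = 2 libraries). The intervals cover counting error only.

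Melanotropes make proopiomelanocortin, the product of Pomc, and cut it further than corticotropes of the anterior lobe do. In both cell types the precursor is first cleaved to corticotropin and beta-lipotropin. Melanotropes then use the convertase encoded by Pcsk2 to cut corticotropin, and carboxypeptidase E and peptidyl-glycine amidation finish alpha-melanotropin. In the mouse the paired-homeobox factor Pax7 selects melanotrope over corticotrope fate, Tbx19 is needed for Pomc cells of both lobes, and the intermediate lobe is reached by dopamine and GABA nerve endings rather than by the portal blood.

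The cleavage sites are visible in the Pomc coding sequence, shown here because the difference between the 2 Pomc cell types turns on them. The mouse gene holds 7 runs of adjacent lysine or arginine codons among its 235 codons, stop included. The segment below spans codons 122 to 164 (GRCm38, chr12:3960124-3960252, plus strand, GENCODE vM21 annotation), and capitals mark the runs of basic codons.
Pomc codons 122-164: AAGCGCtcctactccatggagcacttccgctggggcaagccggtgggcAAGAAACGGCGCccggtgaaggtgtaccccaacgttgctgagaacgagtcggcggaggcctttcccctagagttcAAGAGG
The first and last capital runs bracket the part that codes for corticotropin. The run of 4 basic codons between them (codons 138 to 141, chr12:3960172-3960183) closes the part that codes for alpha-melanotropin. Counts of 3′ ends report the level of the whole transcript and not its processing.

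Pomc and Pcsk2 set membership, so their levels are descriptions. Pomc took 20.3% of UMIs in the lowest melanotrope of either library. The median was 43.4% in library 1 and 42.4% in library 2, and the highest cells reached 61.2% and 65.0%. In corticotropes, taken here as barcodes with Pomc above 2% and at most 2 Pcsk2 UMIs, the median Pomc share was 6.13% and 5.61%. Pcsk2 had a median of 9 and 8 UMIs per melanotrope, with up to 56 and 62 in 1 cell, and a median of 0 in corticotropes of both libraries. Pomc left melanotropes with fewer UMIs for other genes than their totals would give: the median total was 6936 and 7003 UMIs, of which 4089 and 4295 fell outside the 7 hormone genes Gh, Prl, Pomc, Lhb, Fshb, Tshb and Cga. Corticotropes had medians of 4085 and 3864 UMIs outside those genes, and medians of 1807 and 1910 genes in melanotropes compare with 1790 and 1709 in corticotropes. For this reason every level below is given as CPM, the UMIs of a gene scaled to a fixed total of UMIs outside the hormone genes and adjusted by trimmed-mean (TMM) factors unless a sum over markers is given, with library 1 before library 2.

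**Figure D1:**
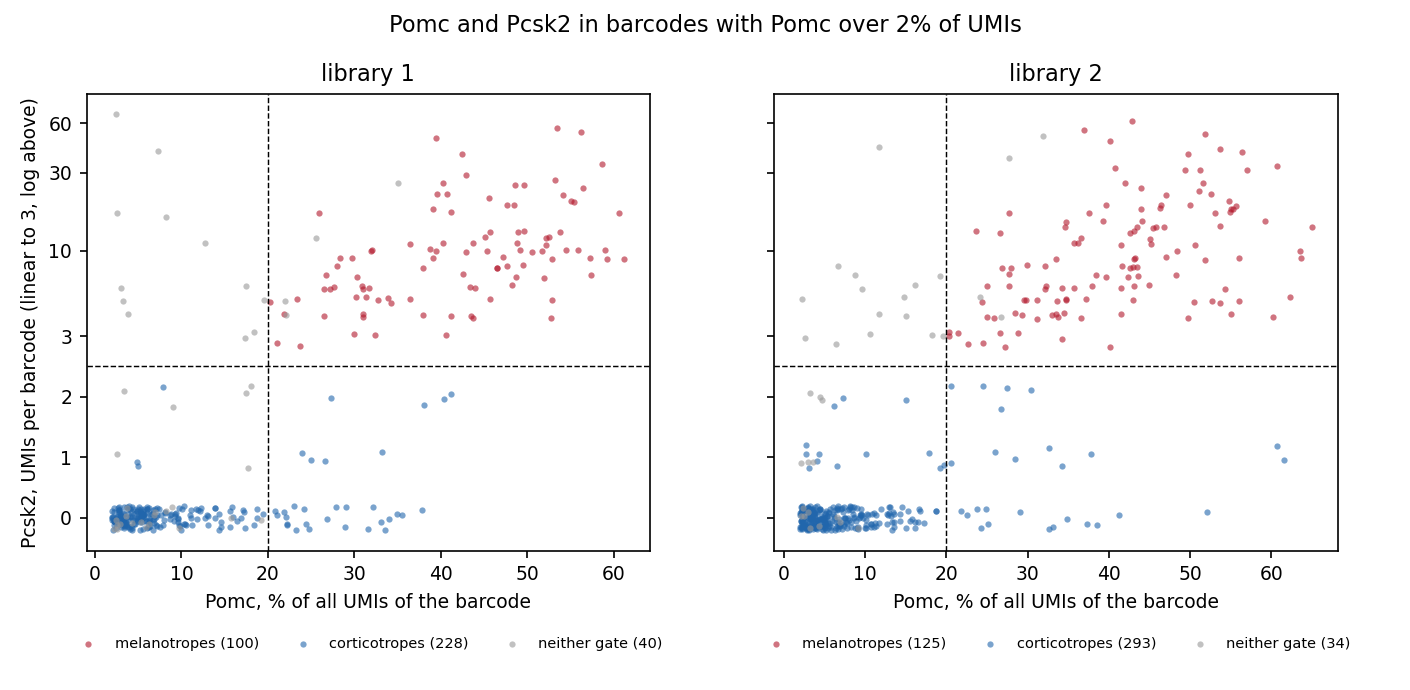
Pomc as a percentage of all UMIs of a barcode (horizontal) against Pcsk2 UMIs of the barcode (vertical, linear to 3 and logarithmic above, jittered) in barcodes with Pomc above 2%, 1 panel a library. Dashed lines mark 20% Pomc and the step to 3 Pcsk2 UMIs. The 100 and 125 melanotropes lie at the upper right, and most corticotropes lie at 0 Pcsk2 UMIs and low Pomc. Other corticotropes, 58 in both libraries, lie above 20% Pomc with 0 to 2 Pcsk2 UMIs.

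Barcodes near the limits were counted on both sides. Among melanotropes, 39 had Pomc between 20 and 30% and 38 had 3 or 4 Pcsk2 UMIs. Just outside, 58 barcodes had more than 20% Pomc but 0 to 2 Pcsk2 UMIs, and 17 had at least 3 Pcsk2 UMIs but 2 to 20% Pomc. Another 8 met both limits but held 10% or more of Gh or Prl. The corticotrope gate has no upper limit on Pomc, so the 58 are part of the corticotrope class in every comparison below. Pax7, which the rule did not use, was seen in 25.6% of the melanotropes with 20 to 30% Pomc and in 38.7% of those above 30%. It was seen in 10.3% of the 58 barcodes with little Pcsk2, in 52.9% of the 17 with less Pomc and in 0.430% of the 465 barcodes that had 2 to 20% Pomc and at most 2 Pcsk2 UMIs. Crhr1, the receptor for corticotropin-releasing hormone, ran the other way: no melanotrope with 20 to 30% Pomc had a UMI of it and 1.61% of those above 30% did, against 32.8% of the 58 and 49.2% of the 465.

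The label was set beside 4 further markers named for the class, Pax7, Pkib, Slitrk6 and Megf11. These markers were named with earlier results of these data known. All are among the 12 genes highest against the other hormone classes here, so the 4 describe the label and do not test it. At least 1 UMI of any of them was present in 92% of melanotropes in library 1 and 89.6% in library 2, against 14.5% and 16.7% of corticotropes and 0% and 0.625% of endothelial cells, whose median depth outside the hormone genes was 4601 and 4235 UMIs. Stem cells reached 53.2% and 50.0%, through Slitrk6, and macrophages 35.4% and 34.2%, through Pkib. After each cell was thinned to 1000 UMIs outside the hormone genes, Pax7 was seen in 8% and 8.8% of melanotropes, Pkib in 26% and 22.4%, Slitrk6 in 8% and 15.2% and Megf11 in 14% and 11.2%. Without thinning these shares were 34% and 38.4%, 70% and 64.8%, 34% and 44%, and 41% and 37.6%. No endothelial cell held a thinned UMI of any of the 4.

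Markers of other classes were scarce in melanotropes. The non-endocrine classes were gated on these same marker lists, so the sums in their own class were set by the gate. The 7 stem cell markers summed to 54.6 and 54.7 CPM, against 3350 and 3304 in stem cells, and Aldh1a2, Aldh3a1 and Cpxm2 were at 0. Their sums were 33.2 and 64.8 in corticotropes, 37.3 and 30.1 in somatotropes, 29.1 and 20.3 in lactotropes, and 134 and 157 in gonadotropes. The 8 endothelial markers gave 11.4 and 49.6, against 14389 and 13265 in endothelial cells, with Pecam1 and Cldn5 at 0 in both libraries. The 6 fibroblast markers gave 9.09 and 15.4 and the 6 macrophage markers 6.82 and 6.84. The 3 corticotrope markers Crhr1, Avpr1b and Tnnt1 gave 6.82 and 3.42, against 484 and 564 in corticotropes. Gh took a median of 0.939% and 0.742% of UMIs in melanotropes and 1.18% and 1.0% in corticotropes. Single melanotropes reached up to 8.37% and 8.05% Prl and up to 1.86% and 0.999% Lhb plus Fshb. The melanotrope rule set no limit on Lhb, Fshb or Cga. No doublet caller was run, so the number of doublets among melanotropes is not known. Of 54 barcode sequences present in both libraries, 0 belonged to a melanotrope, which does not bear on doublets inside a library.

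Raw UMIs were summed per class and library, and 12286 genes were tested with edgeR's quasi-likelihood test, adjusted over all of them by Benjamini-Hochberg. Melanotropes were set against the equally weighted mean of corticotropes (521 cells), somatotropes (7168), lactotropes (2729) and gonadotropes (553), against corticotropes alone, and against the mean of stem (287), endothelial (283), fibroblast (155) and macrophage (127) cells. Thyrotropes (8 and 29 cells) and pituicytes (19 and 31) had under 20 cells in a library and were not in the fit. The 40 genes that define a class were not tested. At an adjusted p of 0.05, 1202 genes (9.78%) were higher and 994 (8.09%) lower in melanotropes than in the other hormone classes. Against corticotropes, 1160 (9.44%) were higher and 1197 (9.74%) lower. With corticotropes limited to 2 to 20% Pomc and 0 Pcsk2 UMIs, 1194 of 11986 genes were higher and 1225 lower. Against non-endocrine cells, 3035 (24.7%) were higher and 1943 (15.8%) lower. With DESeq2 in place of edgeR the first comparison split into 1523 higher and 595 lower, and without TMM factors the third split into 3787 higher and 1538 lower. With all non-endocrine cells summed into 1 column a library, the third turned to 3027 higher and 3452 lower. The labels do not say that the pools were prepared apart. The p-values set class differences against what still differs between the 2 libraries after the library block. This spread is shared over the classes of the fit, with 8 residual degrees of freedom, and is not a spread between mice.

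The genes that set melanotropes apart from the other hormone classes encode a lineage factor, secreted and membrane proteins, enzymes and a sodium channel. Oacyl, a predicted membrane acyltransferase, was the most abundant, with 775 and 844 CPM in melanotropes against 4.805 and 21.8 CPM in corticotropes and a mean of at most 2.03 CPM in every other class in the fit. Its mean CPM was 186-fold the arithmetic mean of the other hormone classes and 60.8-fold that of corticotropes, the next class. The fitted difference, which averages the classes on the log scale, was larger (log2 fold change 8.41 ± 0.19 SE, adjusted p = 1.88e-14). Oacyl UMIs were seen in 193 of 225 melanotropes. Esm1, which encodes the secreted proteoglycan endocan, had 304 and 349 CPM in melanotropes, against 51.9 and 63.1 CPM in corticotropes and 98.9 and 71.7 CPM in endothelial cells. Its mean CPM was 22.2-fold the arithmetic mean of the other hormone classes (adjusted p = 3.59e-45 for the fitted difference).

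Crisp1 encodes a cysteine-rich secretory protein otherwise known from the epididymis and sperm. Levels were 117 and 145 CPM in melanotropes, from 149 UMIs, with 0 UMIs in corticotropes, lactotropes, gonadotropes and the 4 non-endocrine classes of the fit, and 0.2105 and 0.547 CPM in somatotropes. The difference from corticotropes was at least 103-fold, taking 3 UMIs over the corticotropes as the floor (adjusted p = 5.22e-18 with edgeR, and 0.328 with DESeq2). Its UMIs were unevenly shared: 42 of 225 melanotropes had any, the highest cell had 17, and the 10 highest cells held 64.4% of them. Crisp1 was thus detected in a minority of melanotropes, 16% and 20.8% of cells.

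The 4 markers named for the class are given as a description. Pax7 had 111 and 117 CPM in melanotropes, against 1.92 and 4.67 CPM in corticotropes, and was 34.6-fold higher than in that next class. Corticotropes here include the 58 barcodes with over 20% Pomc, of which 10.3% held a Pax7 UMI. Megf11, a membrane protein with EGF-like repeats, had 117 and 107 CPM in melanotropes, against 5.77 and 4.67 CPM in corticotropes and 7.23 and 11.1 CPM in stem cells. Pkib, an inhibitor of protein kinase A, had 269 and 240.2 CPM in melanotropes, against 33.6 and 43.6 CPM in corticotropes and 203 and 163 CPM in macrophages. Slitrk6, a neuronal-type adhesion protein, had 94.5 and 125 CPM in melanotropes, against 6.73 and 7.01 CPM in corticotropes and 107 and 67.6 CPM in stem cells. Pax7 and Megf11 were thus highest in melanotropes by over 10-fold, whereas Pkib and Slitrk6 were shared with macrophages and stem cells at similar levels.

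Gulo, which encodes the last enzyme of vitamin C synthesis in the mouse, had 61.7 and 74.3 CPM in melanotropes and 2.88 and 5.45 CPM in corticotropes (log2 fold change 3.99 ± 0.48 SE, adjusted p = 4.5e-10). Cdh13, the anchored T-cadherin, had 113 and 123 CPM in melanotropes, against 7.69 and 10.9 CPM in corticotropes and 11.6 and 10.1 CPM in somatotropes (log2 fold change 6.02 ± 0.28 SE, adjusted p = 1.62e-29 against the other hormone classes). Both genes were higher in melanotropes of each library than in any corticotrope library. Rbfox3, the splicing regulator that marks neurons, had 101 and 99.6 CPM in melanotropes and 10.6 and 7.01 CPM in corticotropes (log2 fold change 3.53 ± 0.37 SE, adjusted p = 3.49e-12). Scn2a1, a voltage-gated sodium channel subunit, had 111 and 122 CPM in melanotropes and 9.61 and 14.8 CPM in corticotropes (log2 fold change 3.23 ± 0.33 SE, adjusted p = 7.26e-13). Enc1, an actin-associated kelch protein, had 101 and 90.1 CPM in melanotropes, from 106 UMIs, and 1 UMI in all corticotropes, a ratio of 220 with a counting interval of 38.7 to 8775. Each of these 5 genes was seen in a minority of melanotropes, with 53 to 93 of 225 cells holding a UMI.

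**Figure D2:**
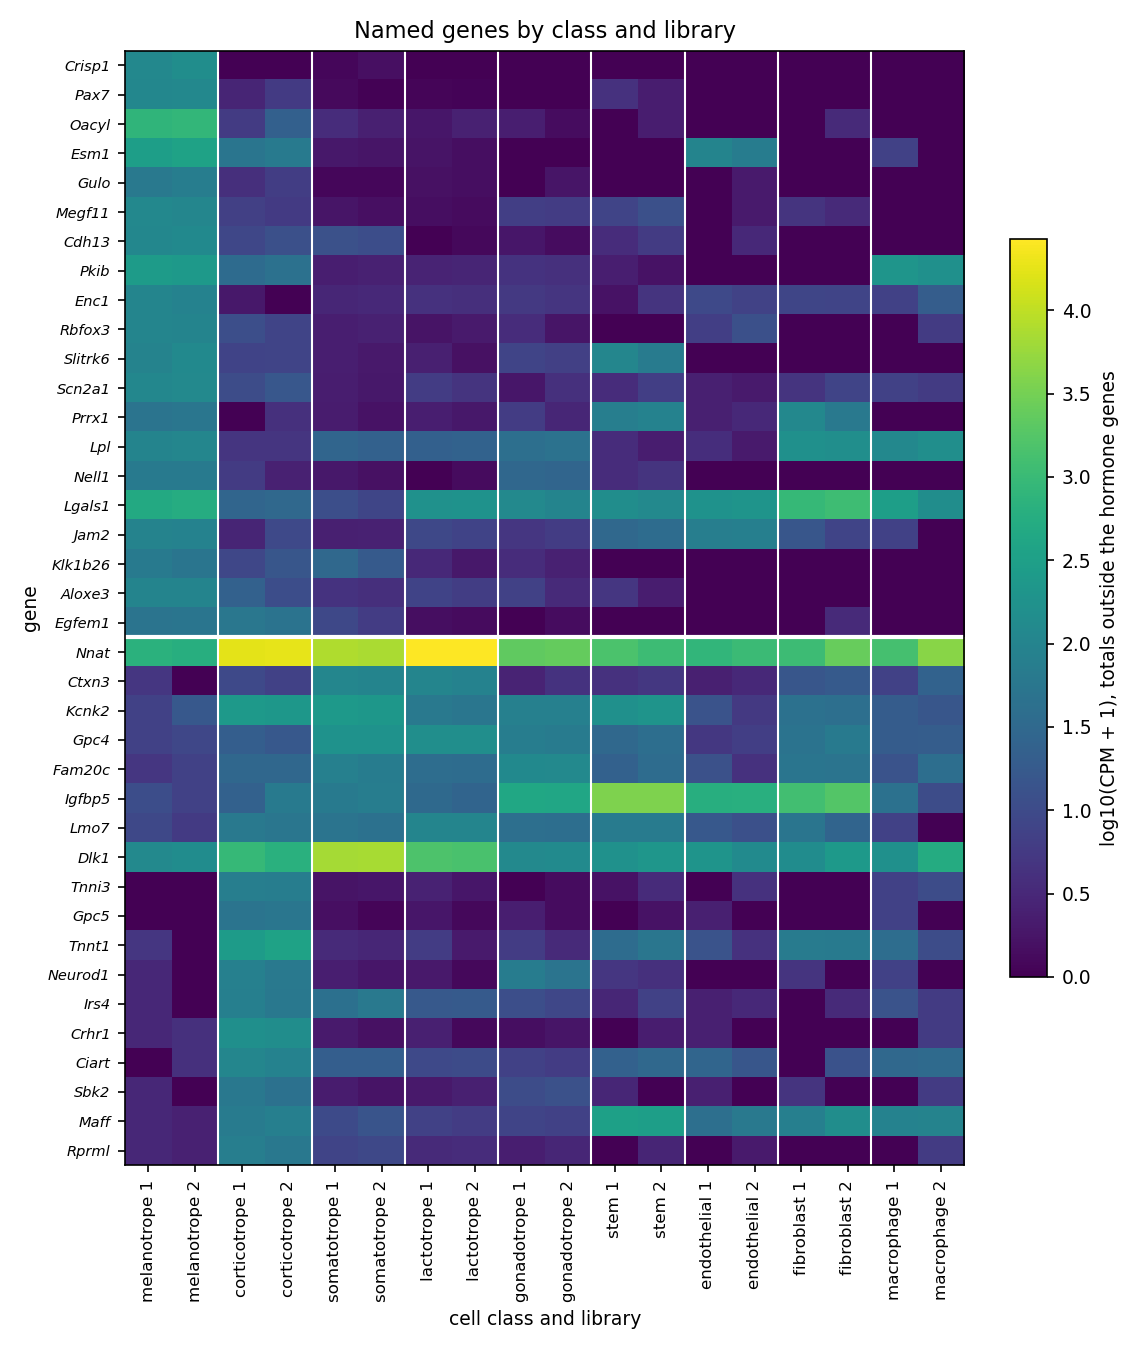
Level of the named genes (rows) in each class and library (columns), as log10 of CPM outside the hormone genes plus 1. Genes above the white line were higher in melanotropes and genes below it lower. Crisp1, Pax7, Oacyl and Gulo stand out in the 2 melanotrope columns, and Tnni3 and Gpc5 are at 0 there.

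Promoters of these genes were read from RefSeq (GRCm38.p6), 250 bases before to 50 after the start. Of the 12 genes highest against the other hormone classes, 6 matched, with 7 promoters. The motifs searched, on both strands, were TAATCC, a bicoid-type homeodomain core, TCACACC, a T-box core, the paired-homeodomain palindrome, the E-box CAGCTG and the TATA box TATAAA. No motif overlapped another where found. Crisp1 and Esm1 are shown because Crisp1 had 0 UMIs in most classes and Esm1 was second to Oacyl in level among the 12. Capitals mark the motifs.
Crisp1 promoter, chr17:40319158-40319457, minus strand: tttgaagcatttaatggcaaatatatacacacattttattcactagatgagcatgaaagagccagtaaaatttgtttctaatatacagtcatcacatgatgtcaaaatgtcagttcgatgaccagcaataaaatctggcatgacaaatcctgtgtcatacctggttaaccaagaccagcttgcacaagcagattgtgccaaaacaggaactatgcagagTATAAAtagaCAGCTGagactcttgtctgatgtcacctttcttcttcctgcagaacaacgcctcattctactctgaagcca
Esm1 promoter, chr13:113209409-113209708, plus strand: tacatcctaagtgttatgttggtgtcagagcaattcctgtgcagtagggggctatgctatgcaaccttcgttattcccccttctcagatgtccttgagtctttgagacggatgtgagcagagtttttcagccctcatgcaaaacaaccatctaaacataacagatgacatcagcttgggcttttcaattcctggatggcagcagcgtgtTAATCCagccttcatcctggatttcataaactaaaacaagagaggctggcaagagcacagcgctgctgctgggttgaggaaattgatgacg
In Crisp1 the TATA box begins at −31 and the E-box at −21 from the start. In Esm1 the homeodomain core begins at −41. Across the 7 promoters the homeodomain core, the E-box and the TATA box were each in 1 and the other motifs in 0. Among 32851 promoters of the same length, 7.06% held the homeodomain core, 3.98% the T-box core, 0.390% the palindrome, 16.3% the E-box and 13.6% the TATA box. The Pomc promoter held the TATA box at −25 and the Pcsk2 promoter the E-box at −135. These matches are descriptions of the letters in the window.

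Genes lower in melanotropes than the mean of the other hormone classes included 2 imprinted genes that reached high levels in some of those classes. Nnat, which encodes the membrane proteolipid neuronatin, had 684 and 602 CPM in melanotropes, against 17803 and 18393 CPM in corticotropes and 26758 and 26119 CPM in lactotropes (log2 fold change −3.9 ± 0.49 SE, adjusted p = 0.000536). Endothelial cells had 813 and 1056 CPM, so melanotropes lay below even that non-endocrine class. Dlk1, a membrane protein of the Notch-ligand family, had 121 and 142 CPM in melanotropes, against 916 and 647 CPM in corticotropes and 6864 and 7063 CPM in somatotropes (log2 fold change −2.92 ± 0.34 SE, adjusted p = 0.000333). Gonadotropes, at 121 and 130.5 CPM, matched melanotropes. Kcnk2, a background potassium channel, had 6.17 and 15.8 CPM in melanotropes, against 242 and 220.4 CPM in corticotropes and 245 and 222 CPM in somatotropes (log2 fold change −3.44 ± 0.26 SE, adjusted p = 2.48e-18).

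The other named genes of this direction had few UMIs in melanotropes. Gpc4, a glypican, had 6.17 and 7.902 CPM in melanotropes and 179.9 and 179 CPM in somatotropes (log2 fold change −3.42 ± 0.32 SE, adjusted p = 4.45e-14). Fam20c, a kinase of secreted proteins, had 4.11 and 6.32 CPM in melanotropes and 124 and 122 CPM in gonadotropes (log2 fold change −3.38 ± 0.41 SE, adjusted p = 4.27e-10). Lmo7 had 8.22 and 4.74 CPM in melanotropes and 101 and 102 CPM in lactotropes (log2 fold change −3.18 ± 0.36 SE, adjusted p = 4.31e-11). Ctxn3, with 2 UMIs in all melanotropes, had 103 and 89.8 CPM in lactotropes (adjusted p = 2.77e-05). Igfbp5, an insulin-like growth factor binding protein, had 10.3 and 6.32 CPM in melanotropes, against 426 and 411 CPM in gonadotropes (log2 fold change −3.29 ± 0.69 SE, adjusted p = 0.0109), and did not pass without barcodes that carry markers of another class (adjusted p = 0.0673).

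The direct comparison with corticotropes asks what separates the 2 Pomc cell types. Beside Crisp1, Enc1, Oacyl, Pax7 and Megf11, the genes highest in melanotropes were Prrx1, Lpl, Nell1, Lgals1 and Jam2. Lgals1, which encodes galectin-1, had 495 and 540.5 CPM in melanotropes and 26.9 and 30.4 CPM in corticotropes (log2 fold change 4.17 ± 0.23 SE, adjusted p = 2.07e-10). Lpl, lipoprotein lipase, had 98.6 and 107 CPM in melanotropes and 3.84 and 3.89 CPM in corticotropes (log2 fold change 4.73 ± 0.34 SE, adjusted p = 3.81e-19). Both are also high in fibroblasts, at 934 and 1112 CPM and 167 and 153 CPM, and whether fibroblast RNA adds to them was not tested. Lgals1 was seen in 131 of 225 melanotropes, and the 10 highest cells held 36.9% of its 583 UMIs. Jam2, a junctional adhesion molecule, had 94.5 and 91.7 CPM in melanotropes and 1.92 and 8.57 CPM in corticotropes (log2 fold change 4.05 ± 0.36 SE, adjusted p = 2.8e-15). Nell1, a secreted glycoprotein, had 65.8 and 64.8 CPM in melanotropes and 4.805 and 1.56 CPM in corticotropes (log2 fold change 4.42 ± 0.49 SE, adjusted p = 2.79e-11). Prrx1, a homeobox factor, had 49.3 and 53.7 CPM in melanotropes and 0 and 3.12 CPM in corticotropes (log2 fold change 4.89 ± 0.57 SE, adjusted p = 3.56e-10), with 78.2 and 89.1 CPM in stem cells.

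Corticotropes held genes that were all but missing from melanotropes. The troponin genes Tnni3 and Tnnt1, named for heart and slow muscle, had 0 and 2 UMIs in all 225 melanotropes. Corticotropes had 76.9 and 75.6 CPM of Tnni3, at least 28.4-fold lower in melanotropes (adjusted p = 5.14e-12), and 264 and 351 CPM of Tnnt1, 175-fold lower with a counting interval of 48.1 to 1444. Crhr1 had 3 UMIs in melanotropes and 161 and 146 CPM in corticotropes, 57.1-fold lower (19.4 to 278, adjusted p = 1.81e-17). Gpc5, a glypican, had 0 UMIs and was at least 19.6-fold lower than its 49.97 and 54.5 CPM in corticotropes. Neurod1, a basic helix-loop-helix factor of corticotrope differentiation, had 1 UMI in melanotropes and 84.6 and 59.98 CPM in corticotropes, a ratio of 79.5 (14.1 to 3157). Irs4, an insulin receptor substrate, had 1 UMI in melanotropes and 79.8 and 59.2 CPM in corticotropes, a ratio of 76.6 (13.5 to 3043). Ciart, a circadian repressor, Sbk2, Maff, a small Maf factor, and Rprml had 1 or 2 UMIs each and were 37.8- to 56.3-fold lower in melanotropes. All 10 were lower in both libraries.

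**Figure D3:**
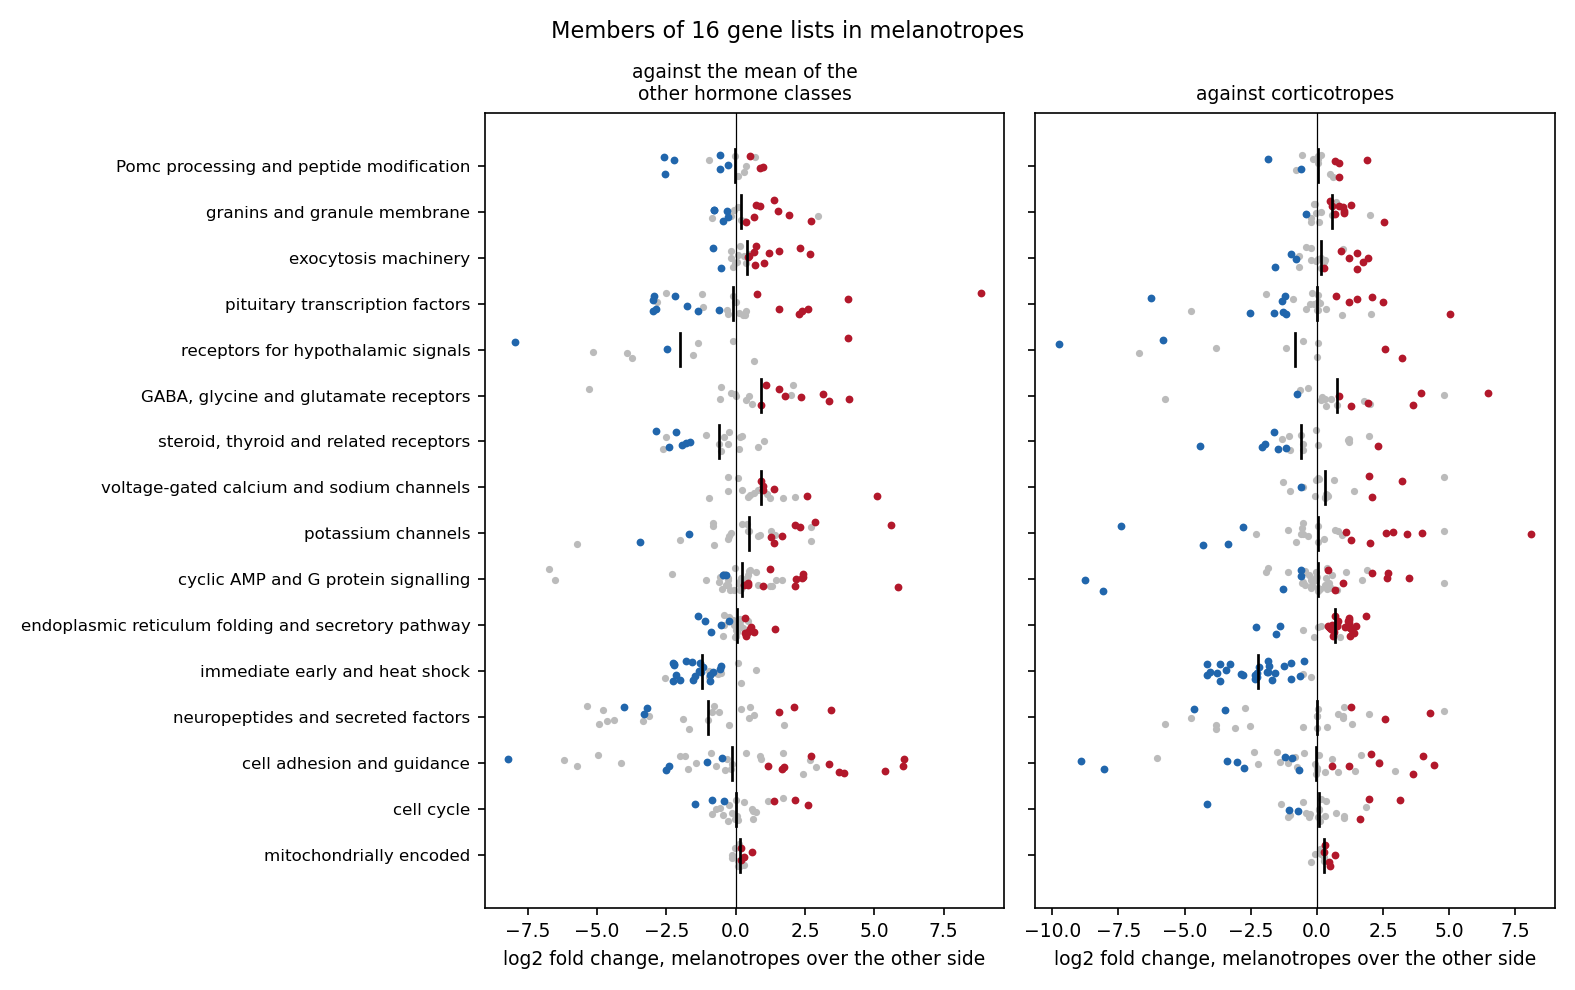
Log2 fold changes of the tested members of 16 gene lists in melanotropes against the mean of the other hormone classes (left) and against corticotropes (right), 1 point a gene. Red points were higher and blue points lower at an adjusted p of 0.05, grey points did not pass, and black bars are list medians. Most members of the immediate early and heat shock list lie left of 0 in both panels, and most of the endoplasmic reticulum list lie right of 0 against corticotropes.

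Lineage transcription factors divided. Of 29 tested, 7 were higher and 8 lower against the other hormone classes, and 6 were higher and 7 lower against corticotropes. Of all genes tested, 9.78% were higher and 8.09% lower in the first comparison and 9.44% and 9.74% in the second, so all 4 counts lay above the background. With DESeq2, 4 factors were lower in the first, where 595 of all 12286 genes were, against 994 with edgeR. With Pomc over 30%, 5 factors were lower, where 865 of 12299 genes were. Tbx19 had 90.4 and 85.3 CPM in melanotropes and 185 and 203 CPM in corticotropes (log2 fold change −1.15 ± 0.19 SE, adjusted p = 1.33e-06), with a mean of at most 3.08 CPM in every other class in the fit. Six3, a homeobox factor of the pituitary primordium, had 296 and 313 CPM in melanotropes, against 60.5 and 82.6 CPM in corticotropes and 391 and 393 CPM in stem cells (log2 fold change 2.07 ± 0.15 SE, adjusted p = 4.78e-19). Six6 followed it, with 273 and 277 CPM in melanotropes and 134 and 104 CPM in corticotropes. Pitx1, a homeobox factor of the early pituitary, was lower, with 49.3 and 63.2 CPM in melanotropes and 152 and 126 CPM in corticotropes (log2 fold change −1.27 ± 0.20 SE, adjusted p = 9.4e-07). Zbtb20 had 319 and 275 CPM in melanotropes and 730.3 and 726 CPM in corticotropes (log2 fold change −1.3 ± 0.10 SE, adjusted p = 3.99e-17). Pou1f1, the factor of the Gh, Prl and Tshb lineage, had 8.22 and 6.32 CPM in melanotropes and 546 and 499 CPM in lactotropes. Corticotropes and gonadotropes were low as well, as its sums with Ghrhr below show.

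Genes of Pomc processing moved in both directions, with list medians of −0.02 and 0.05 on the log2 scale. Beside Pcsk2 itself, 15 processing genes were tested, of which 3 were higher and 6 lower against the other hormone classes, and 4 higher and 2 lower against corticotropes, where the background was 9.78% and 8.09%, and 9.44% and 9.74%. Without barcodes that held markers of another class, 0 were lower against corticotropes, where 1191 of all 12167 genes were. Summed per cell, the list took a median of 0.866% and 0.842% of UMIs outside the hormone genes in melanotropes and 0.865% and 0.836% in corticotropes. Cpe, which trims basic residues after cleavage, had 1321 and 1479 CPM in melanotropes and 906 and 837 CPM in corticotropes (log2 fold change 0.69 ± 0.08 SE, adjusted p = 4.59e-10). Pam, the amidating enzyme, had 686 and 474 CPM in melanotropes and 199 and 119 CPM in corticotropes (log2 fold change 1.88 ± 0.11 SE, adjusted p = 1.53e-23). Scg5, the chaperone of the Pcsk2 enzyme, had 1747 and 1892 CPM in melanotropes and 1032 and 1035 CPM in corticotropes (log2 fold change 0.82 ± 0.12 SE, adjusted p = 5.64e-05), with 3105 and 3148 CPM in lactotropes. Pcsk1, the convertase that makes corticotropin, had 43.2 and 80.6 CPM in melanotropes, 45.2 and 39.7 CPM in corticotropes and 502 and 563 CPM in gonadotropes. It was lower than the mean of the other hormone classes (log2 fold change −0.55 ± 0.19 SE, adjusted p = 0.0392) but lost the call in 6 alternatives, and its difference from corticotropes did not pass (adjusted p = 0.111). Pcsk1n, an inhibitor of that convertase, had 3617 and 3309 CPM in melanotropes and 5258 and 5298 CPM in corticotropes (log2 fold change −0.61 ± 0.10 SE, adjusted p = 0.000352). Furin, another convertase, had 28.8 and 26.9 CPM in melanotropes and was higher than the mean of the hormone classes (log2 fold change 0.86 ± 0.31 SE, adjusted p = 0.044). The Pcsk1n call was lost without barcodes that carry markers of another class (adjusted p = 0.113).

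Of 21 granin and granule-membrane genes, 8 were higher and 5 lower against the other hormone classes, and 9 were higher and 1 lower against corticotropes. The background was 9.78% higher and 8.09% lower in the first and 9.44% and 9.74% in the second. The 5 lower became 3 with DESeq2 or without TMM factors, and 2 with Pomc over 30% or at least 6 Pcsk2 UMIs. Over all genes the lower count also fell in these settings, from 994 to 595, 783, 865 and 843 in that order. Chga, chromogranin A, had 1846 and 1923 CPM in melanotropes, 319 and 336 CPM in corticotropes and 4378 and 3734 CPM in gonadotropes, and passed against corticotropes (log2 fold change 2.52 ± 0.26 SE, adjusted p = 0.000144). Melanotropes thus lay between gonadotropes and the other hormone classes for Chga, with lactotropes at 343 and 313 CPM. Chgb had 1126 and 931 CPM in melanotropes, 543 and 475 CPM in corticotropes and 9544 and 10128 CPM in lactotropes, higher than corticotropes (log2 fold change 1.01 ± 0.24 SE, adjusted p = 0.0197) and lower than the mean of the hormone classes (log2 fold change −0.77 ± 0.19 SE, adjusted p = 0.0251, and 0.0821 with at least 6 Pcsk2 UMIs). Ptprn, a granule membrane protein, had 401 and 531 CPM in melanotropes and 202 and 186 CPM in corticotropes (log2 fold change 1.28 ± 0.16 SE, adjusted p = 2.65e-06). The granin-related peptide gene Vgf was higher than the mean of the hormone classes (log2 fold change 1.51 ± 0.32 SE, adjusted p = 0.000247), with 34.9 and 31.6 CPM in melanotropes and 30.7 and 39.7 CPM in corticotropes, a difference that did not pass (adjusted p = 0.891).

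The exocytosis machinery was tested for 22 genes. Against the other hormone classes 10 were higher and 2 lower, and against corticotropes 7 were higher and 3 lower. The higher counts lay above the background of 9.78% and 9.44%, and the lower ones near that of 8.09% and 9.74%. Syt1, a fast calcium sensor of release, had 294 and 311 CPM in melanotropes and 87.4 and 91.9 CPM in corticotropes (log2 fold change 1.76 ± 0.13 SE, adjusted p = 3.46e-18). Rab27b, a granule-docking GTPase, had 127 and 156 CPM in melanotropes and 59.6 and 42.8 CPM in corticotropes (log2 fold change 1.5 ± 0.20 SE, adjusted p = 8.9e-09). Another calcium sensor, Syt7, had 61.7 and 50.6 CPM in melanotropes and 15.4 and 14.02 CPM in corticotropes (log2 fold change 1.92 ± 0.34 SE, adjusted p = 1.56e-05). The opposite was seen for Rab3b, with 138 and 107 CPM in melanotropes and 353 and 365 CPM in corticotropes (log2 fold change −1.57 ± 0.14 SE, adjusted p = 2.78e-15), and for Baiap3, with 73.99 and 71.1 CPM in melanotropes and 147 and 139 CPM in corticotropes (log2 fold change −0.98 ± 0.21 SE, adjusted p = 0.000237). Snap25, a target-membrane SNARE, had a small difference, with 522 and 471 CPM in melanotropes and 429 and 385 CPM in corticotropes (log2 fold change 0.29 ± 0.11 SE, adjusted p = 0.0441).

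Folding and translocation genes of the endoplasmic reticulum separated melanotropes from corticotropes as a group: 23 of 32 were higher and 3 lower, where 9.44% and 9.74% of all genes were. The median log2 fold change over the 32 was 0.68, against −0.02 over all genes. Calr, a chaperone, had 878 and 975 CPM in melanotropes and 436 and 389 CPM in corticotropes (log2 fold change 1.17 ± 0.09 SE, adjusted p = 7.43e-18). Sec61b, a subunit of the translocation channel, had 984 and 1095 CPM in melanotropes and 398 and 400.4 CPM in corticotropes (log2 fold change 1.38 ± 0.08 SE, adjusted p = 7.21e-23). Creld2 had 129 and 141 CPM in melanotropes and 49.97 and 48.3 CPM in corticotropes (log2 fold change 1.47 ± 0.19 SE, adjusted p = 1.88e-09). The 3 lower members were the stress-response genes Atf4, Ddit3 and Herpud1. Ddit3 had 55.5 and 74.3 CPM in melanotropes and 303 and 337 CPM in corticotropes (log2 fold change −2.29 ± 0.17 SE, adjusted p = 9.77e-19), and Atf4 had 92.5 and 107 CPM in melanotropes and 261 and 269.5 CPM in corticotropes (log2 fold change −1.4 ± 0.16 SE, adjusted p = 3.16e-10). Against the mean of the other hormone classes the list had 8 higher and 5 lower members and a median of 0.03. This became 4 higher and 10 lower when all other hormone cells were summed into 1 column a library, in which somatotropes weigh most. Of all 10270 genes tested there, 1241 were higher and 1195 lower.

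Immediate early and heat shock genes were lower in melanotropes. These are levels in cells after enzymatic dispersal, and levels in the intact gland were not measured. Against corticotropes 26 of 28 were lower and 0 higher, with a median log2 fold change of −2.22, and against the other hormone classes 19 were lower and 0 higher, with a median of −1.20. The background was 9.74% and 8.09% of genes lower. Atf3 had 18.5 and 39.5 CPM in melanotropes and 504 and 543 CPM in corticotropes (log2 fold change −4.13 ± 0.17 SE, adjusted p = 7e-32). Junb had 84.3 and 275 CPM in melanotropes and 2074 and 2501 CPM in corticotropes (log2 fold change −3.64 ± 0.49 SE, adjusted p = 0.000835). Npas4, an activity-dependent factor, had 14.4 and 47.4 CPM in melanotropes and 403 and 419.9 CPM in corticotropes (log2 fold change −3.65 ± 0.31 SE, adjusted p = 4.3e-06). Fos had 423 and 912 CPM in melanotropes and 1954 and 2257 CPM in corticotropes (log2 fold change −1.69 ± 0.31 SE, adjusted p = 0.00488), and its difference from the other hormone classes did not pass (adjusted p = 0.216). In all 4 genes melanotropes of library 2 were above those of library 1, and both lay below both corticotrope values. Among the heat shock genes, Dnajb1 had 121 and 272 CPM in melanotropes and 1934 and 1842 CPM in corticotropes (log2 fold change −3.28 ± 0.39 SE, adjusted p = 0.000347), and Hspa1a had 746 and 1122 CPM in melanotropes and 4988 and 4004 CPM in corticotropes (log2 fold change −2.28 ± 0.32 SE, adjusted p = 0.00112). Hspa1a is uncertain as a single gene, since Hspa1b is nearly identical to it. With no replicate block, 23 members were lower against corticotropes and 14 against the other hormone classes, where 1142 and 943 of all 12286 genes were.

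**Figure D4:**
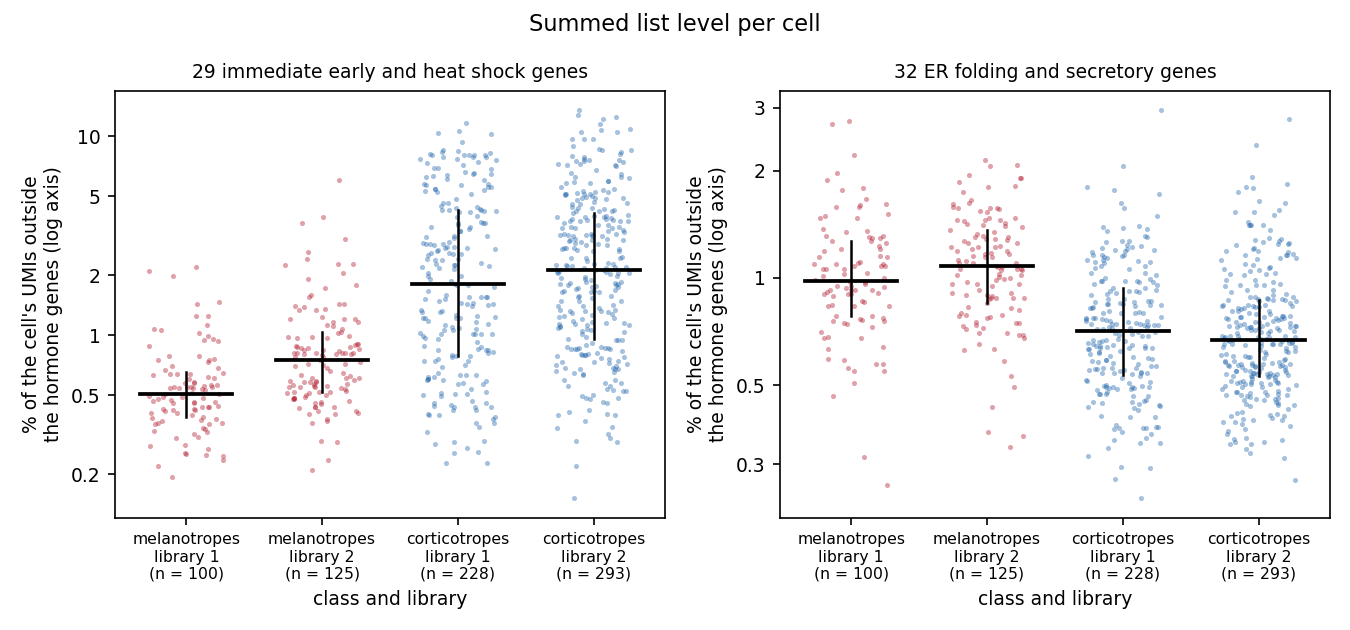
Summed UMIs of the 29 immediate early and heat shock genes (left) and of the 32 endoplasmic reticulum genes (right) per cell, as a percentage of the cell's UMIs outside the hormone genes on a log axis. Points are cells, horizontal bars medians and vertical bars the range from the lower to the upper quartile. Median levels of the left list were 0.507% and 0.750% in melanotropes and 1.8% and 2.12% in corticotropes, with overlapping cells. Corticotropes above 20% Pomc are not marked apart, and most of them lay below those corticotrope medians.

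Receptors for hypothalamic signals were mostly too few in UMIs to test. Of 29 genes listed, the ligand gene Gal among them, 10 passed the low-count filter, with 1 higher and 2 lower against the other hormone classes and 2 higher and 2 lower against corticotropes. With 10 genes these counts are near or little above the background of 8.09% to 9.78%. With no filter on low counts, 4 of the list were higher in the first. That setting also tests genes with few UMIs, so the 4 are not out of the 10. Of all 20059 genes tested there, 1190 were higher. Avpr1b, the pituitary vasopressin receptor, had 0 UMIs in melanotropes and 23.1 and 31.9 CPM in corticotropes, at least 10.4-fold lower (adjusted p = 5.82e-06). Ghrhr and Sstr3 were lower than the mean of the other hormone classes, with 3 and 0 UMIs in melanotropes. Summed with Pou1f1, Ghrhr took 11.4 and 10.3 CPM in melanotropes, 14.5 and 13.3 in corticotropes and 13.8 and 12.4 in gonadotropes. Somatotropes had 588 and 571, so corticotropes and gonadotropes shared the low level of melanotropes. Drd2, the dopamine receptor through which the intermediate lobe is inhibited, had 8 UMIs in the whole series and 0 in melanotropes, so its level was not measurable here. Mc3r, a melanocortin receptor, had 20 UMIs in the series, 6 of them in melanotropes.

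Of 19 steroid and thyroid receptors and related genes, 0 were higher and 6 lower against the other hormone classes, and 1 was higher and 6 lower against corticotropes. The background was 8.09% and 9.74% lower. The 1 higher member was Esr1, an oestrogen receptor, with 14.4 and 7.902 CPM in melanotropes and 1.92 and 2.34 CPM in corticotropes (log2 fold change 2.3 ± 0.74 SE, adjusted p = 0.0183), although it was lower than the mean of the hormone classes (adjusted p = 0.00226). Nr3c1, the glucocorticoid receptor, had 10.3 and 6.32 CPM in melanotropes, from 9 of its 4366 UMIs in the series. Corticotropes had 185 and 159 CPM (log2 fold change −4.41 ± 0.30 SE, adjusted p = 1.58e-20), somatotropes 67.7 and 77.04 CPM and gonadotropes 30.98 and 30.5 CPM, and lactotropes were below melanotropes at 5.34 and 3.69 CPM. Among glucocorticoid-induced genes, Fkbp5 had 10.3 and 12.6 CPM in melanotropes and 44.2 and 52.2 CPM in corticotropes (log2 fold change −2.06 ± 0.36 SE, adjusted p = 4.79e-06). Tsc22d3 had 16.4 and 25.3 CPM in melanotropes and 49.97 and 66.99 CPM in corticotropes (log2 fold change −1.47 ± 0.28 SE, adjusted p = 3.63e-05), and Per1 had 24.7 and 31.6 CPM in melanotropes and 101 and 119.96 CPM in corticotropes (log2 fold change −1.96 ± 0.26 SE, adjusted p = 2.02e-08). Melanotropes thus had the lowest Fkbp5 and Tsc22d3 of the 5 hormone classes in both libraries, but not the lowest Nr3c1 or Per1. Thrb, a thyroid hormone receptor, had 2 UMIs in melanotropes and was lower than the mean of the hormone classes (adjusted p = 0.00284).

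**Figure D5:**
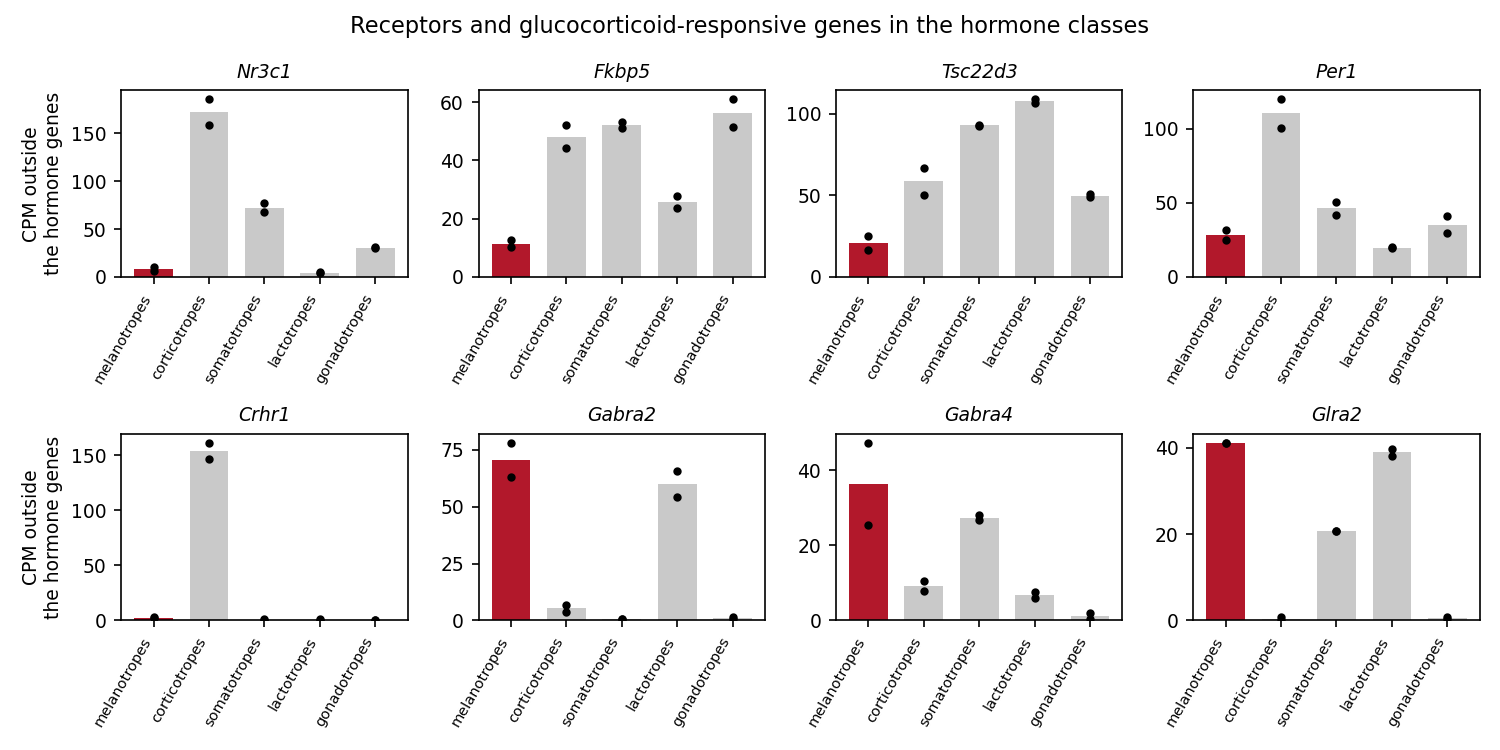
Levels of 8 receptor and glucocorticoid-responsive genes in the hormone classes, in CPM outside the hormone genes. Bars are means of 2 libraries and points the libraries, with melanotropes in red. Nr3c1, Fkbp5, Tsc22d3, Per1 and Crhr1 were lower in melanotropes than in corticotropes, and Gabra2, Gabra4 and Glra2 were higher.

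Of 19 GABA, glycine and glutamate genes tested, 8 were higher and 0 lower against the other hormone classes, and 6 were higher and 1 lower against corticotropes. The background was 9.78% and 9.44% of genes higher. Gabra2, a GABA receptor subunit, had 78.1 and 63.2 CPM in melanotropes, 3.84 and 7.01 CPM in corticotropes and 65.8 and 54.4 CPM in lactotropes (log2 fold change 3.63 ± 0.38 SE, adjusted p = 4.59e-12 against corticotropes). Gabra4 had 47.3 and 25.3 CPM in melanotropes and 10.6 and 7.79 CPM in corticotropes (log2 fold change 1.95 ± 0.42 SE, adjusted p = 0.000213). Glra2, a glycine receptor subunit, had 41.1 and 41.1 CPM in melanotropes, from 46 UMIs, and 1 UMI in corticotropes, a ratio of 95.5 (16.3 to 3854), with 38.1 and 39.7 CPM in lactotropes. Gad2, an enzyme of GABA synthesis, had 36.99 and 18.96 CPM in melanotropes and 1.92 and 1.56 CPM in corticotropes (log2 fold change 3.94 ± 0.71 SE, adjusted p = 3.3e-05). Grin1, a glutamate receptor subunit, had 47.3 and 88.5 CPM in melanotropes and 26.9 and 29.6 CPM in corticotropes (log2 fold change 1.3 ± 0.26 SE, adjusted p = 8.7e-05). Lactotropes had Gabra2 and Glra2 near the level of melanotropes.

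Calcium and sodium channel genes had 6 of 19 higher and 0 lower against the other hormone classes, and 3 higher and 1 lower against corticotropes. The background was 9.78% and 9.44% higher, and the count against corticotropes was little above it. Beside Scn2a1, Cacna1a had 49.3 and 58.5 CPM in melanotropes and 16.3 and 10.1 CPM in corticotropes (log2 fold change 2.07 ± 0.32 SE, adjusted p = 3.53e-07). Cacna2d2, an auxiliary subunit, had 24.7 and 28.4 CPM in melanotropes and 5.77 and 7.79 CPM in corticotropes (log2 fold change 1.96 ± 0.46 SE, adjusted p = 0.000829). Potassium channels were tested for 27 genes, with 7 higher and 2 lower against the hormone classes, and 8 higher and 4 lower against corticotropes, with the same background. The 4 lower became 2 with DESeq2 or with Pomc over 30%, where 953 of all 12286 and 1144 of 12299 genes were lower. The large-conductance channel subunits split: Kcnmb4 had 69.9 and 74.3 CPM in melanotropes and 8.65 and 5.45 CPM in corticotropes (log2 fold change 3.39 ± 0.35 SE, adjusted p = 1.06e-12), while Kcnmb2 had 4.11 and 3.16 CPM in melanotropes and 41.3 and 33.5 CPM in corticotropes (log2 fold change −3.36 ± 0.51 SE, adjusted p = 2.2e-07). The background channels also split, with Kcnk3 at 36.99 and 22.1 CPM in melanotropes and 2.88 and 4.67 CPM in corticotropes (log2 fold change 2.88 ± 0.54 SE, adjusted p = 2.89e-05) and Kcnk2 lower, as given above. Kcnc1, a fast delayed rectifier, had 67.8 and 33.2 CPM in melanotropes and 15.4 and 23.4 CPM in corticotropes (log2 fold change 1.29 ± 0.35 SE, adjusted p = 0.00386).

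Of 45 cyclic AMP and G protein genes, Pkib among them, 11 were higher and 2 lower against the hormone classes, and 7 were higher and 5 lower against corticotropes. The background was 9.78% and 8.09%, and 9.44% and 9.74%. Against corticotropes the higher count was thus little above it and the lower count near it. The 2 lower against the hormone classes became 0 with DESeq2, without TMM factors or with at least 6 Pcsk2 UMIs. Of all 12286 genes, 595, 783 and 843 were lower there, against 994 in the main fit. Phosphodiesterase Pde4b had 24.7 and 23.7 CPM in melanotropes and 5.77 and 2.34 CPM in corticotropes (log2 fold change 2.63 ± 0.54 SE, adjusted p = 0.000101), and Pde1c had 34.9 and 64.8 CPM in melanotropes and 9.61 and 14.02 CPM in corticotropes (log2 fold change 2.09 ± 0.35 SE, adjusted p = 1.83e-06). The inhibitory alpha subunits differed in direction. Gnai1 had 43.2 and 34.8 CPM in melanotropes and 0.961 and 5.45 CPM in corticotropes (log2 fold change 3.47 ± 0.50 SE, adjusted p = 8.05e-08), and Gnai2 had 144 and 180.2 CPM in melanotropes and 237 and 256 CPM in corticotropes (log2 fold change −0.6 ± 0.12 SE, adjusted p = 0.000153). Adcy2, an adenylyl cyclase, had 0 UMIs in melanotropes and 15.4 and 13.2 CPM in corticotropes, at least 5.30-fold lower.

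Neuropeptide and secreted-factor genes were tested for 25 of 36 listed, and 3 were higher and 3 lower against the hormone classes and 3 higher and 2 lower against corticotropes. All 4 counts lay near the background of 9.78% and 8.09%, and 9.44% and 9.74%. The first pair was 1 higher and 6 lower with the other hormone cells summed into 1 column a library, where 1241 and 1195 of all 10270 genes were. Nmb, neuromedin B, had 111 and 129.6 CPM in melanotropes and 71.1 and 32.7 CPM in corticotropes (log2 fold change 1.28 ± 0.23 SE, adjusted p = 2.6e-05). Gal, galanin, had 16.4 and 33.2 CPM in melanotropes and 3.84 and 4.67 CPM in corticotropes (log2 fold change 2.58 ± 0.52 SE, adjusted p = 7.44e-05), and lactotropes had 33.8 and 36.6 CPM. Cartpt had 1 UMI in melanotropes and 29.8 and 17.9 CPM in corticotropes, 26.0-fold lower (4.47 to 1046). Adhesion and guidance genes had 10 of 36 higher and 5 lower against the hormone classes, and 7 higher and 8 lower against corticotropes. The background was 9.78% and 8.09%, and 9.44% and 9.74%. The 5 lower became 3 with DESeq2, where 595 of all 12286 genes were lower. Nrxn2, a presynaptic adhesion protein, had 107 and 94.8 CPM in melanotropes and 47.1 and 39.7 CPM in corticotropes (log2 fold change 1.22 ± 0.22 SE, adjusted p = 1.28e-05), and the guidance ligand gene Slit1 had 30.8 and 22.1 CPM in melanotropes and 8.65 and 2.34 CPM in corticotropes (log2 fold change 2.33 ± 0.57 SE, adjusted p = 0.00126). Robo2, a receptor for Slit ligands, had 0 UMIs in melanotropes and 10.6 and 7.01 CPM in corticotropes, at least 3.21-fold lower. Cntn1 had 20.6 and 22.1 CPM in melanotropes and 155 and 139 CPM in corticotropes (log2 fold change −2.77 ± 0.25 SE, adjusted p = 3.49e-14), and Epha5 had 16.4 and 20.5 CPM in melanotropes and 153 and 153 CPM in corticotropes (log2 fold change −3.03 ± 0.26 SE, adjusted p = 1.88e-15).

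Cell cycle genes gave 3 higher and 3 lower of 24 in both comparisons, near the background of 8.09% to 9.78%. The higher ones, Top2a, Rrm2 and Birc5, came from few cells: 19 Top2a UMIs lay in 4 melanotropes, 26 Rrm2 UMIs in 4 with 23 of them in 1 cell, and 21 Birc5 UMIs in 3. When all other hormone cells were summed into 1 column a library, 0 of the list were higher and 5 lower. Of all 10270 genes tested there, 1241 were higher and 1195 lower. Cdkn1a, an inhibitor of cyclin-dependent kinases, had 8.22 and 12.6 CPM in melanotropes and 179.7 and 198 CPM in corticotropes (log2 fold change −4.15 ± 0.31 SE, adjusted p = 6.08e-14). Ccnd1 and Ccnd2, D-type cyclins, were lower too: Ccnd2 had 368 and 375 CPM in melanotropes and 629 and 604 CPM in corticotropes (log2 fold change −0.73 ± 0.10 SE, adjusted p = 1.05e-08). Of 13 mitochondrially encoded genes 4 were higher against the hormone classes and 5 against corticotropes, with none lower, where the background was 9.78% and 9.44% higher. With at least 6 Pcsk2 UMIs these counts were 2 and 1, where 1073 and 1091 of all 12286 genes were higher. The first was 7 without TMM factors or against 1 summed column a library, where 1415 of 12286 and 1241 of 10270 genes were higher. Without barcodes that held markers of another class the second was 3, where 1152 of 12167 genes were higher. mt-Atp6 had 18318 and 15731 CPM in melanotropes and 10729.7 and 10680.3 CPM in corticotropes (log2 fold change 0.67 ± 0.09 SE, adjusted p = 1.24e-08). As a share of all UMIs, Pomc included, mitochondrial transcripts had a median of 4.59% and 3.79% in melanotropes and 5.20% and 5.33% in corticotropes.

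Against non-endocrine cells, melanotropes had more of the secretory apparatus. Of 22 exocytosis genes, 21 were higher and 0 lower, and 18 of 21 granin and granule genes were higher and 0 lower, where the background was 24.7% higher. Snap25 had 522 and 471 CPM in melanotropes and 30.2 and 33.8 CPM in stem cells (log2 fold change 4.42 ± 0.13 SE, adjusted p = 5.31e-42 against the mean of the non-endocrine classes). Immediate early and heat shock genes were lower here as well, 23 of 28, with 1 higher, Npas4. The 8 genes named by the rule on level and fold were Oacyl, Crisp1, Klk1b26, Pax7, Aloxe3, Gulo, Nell1 and Egfem1. Aloxe3, of the lipoxygenase family, had 98.6 and 99.6 CPM in melanotropes, with 23.1 and 10.1 CPM in corticotropes and 3.94 and 1.23 CPM in stem cells. Klk1b26, a kallikrein, had 63.7 and 50.6 CPM in melanotropes and 0 UMIs in all 4 non-endocrine classes, and is uncertain as a single gene because its family has near-identical copies. Egfem1 had 49.3 and 52.2 CPM in melanotropes and 56.7 and 46.7 CPM in corticotropes, a difference that did not pass (adjusted p = 1).

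Melanotropes varied among themselves in depth, Pomc share and secretory genes. Total UMIs ran from 2851 to 22651 in library 1 and from 2763 to 30902 in library 2. Across cells, the Pomc share went with Pcsk2 per UMI outside the hormone genes (Spearman rho 0.668 over 100 cells and 0.671 over 125) and with the summed endoplasmic reticulum list (0.570 and 0.578). It went little with depth outside the hormone genes (−0.0857 and 0.153), and with the mitochondrial share the correlation was −0.225 and −0.308. These are descriptions: both measures come from the same barcode, the Pomc and mitochondrial shares have a common total, and the rule set a floor on Pomc and Pcsk2. The endoplasmic reticulum list took a median of 0.980% and 1.08% of UMIs outside the hormone genes in melanotropes and 0.712% and 0.671% in corticotropes. Granin genes took 0.797% and 0.829% in melanotropes and 0.507% and 0.487% in corticotropes.

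In the authors' deposited projection of all barcodes in 2 dimensions, melanotropes lay together. Of the 10 nearest barcodes of a melanotrope, 75.5% and 75.2% on average were melanotropes and about 10% were corticotropes in both libraries. At least 5 of the 10 were melanotropes for 90 of 100 cells and 110 of 125, and none were for 6 and 8. The circle that held 202 melanotropes also held 272 other barcodes, among them 88 corticotropes, 79 lactotropes, 29 thyrotropes and 12 somatotropes. Pax7 was seen in 13 of those 272. The coordinates are those of the authors and serve as a description.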

How the data were processed

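Single-cell RNA libraries of 2 pools were read as the authors' deposited matrix of UMI counts per gene and barcode, made with Cell Ranger and STAR on mm10 (from the submitters' processing notes, which give no version here). The deposited projection coordinates are scores per barcode by the authors and served only to describe positions. The barcode suffix gave the library. Kept barcodes had 250 or more genes detected and no more than 20% of UMIs from mitochondrial genes. Classes were set by gates on marker UMIs, without clustering. The members, the class markers, the gates and the gene lists were chosen with earlier results of these data known.

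The libraries held 70813117 and 78861988 UMIs over all barcodes. Counts of classed barcodes were summed per class and library and fitted in edgeR 4.0.16 (R 4.3.3, limma 3.58.1) with the robust quasi-likelihood test. The fit used TMM factors on totals outside the hormone genes, the default expression filter, and the library as a block. The block stands because both classes of a comparison come from 1 pool, although deviations of 36 class pairs within a library correlated at −0.219 to 0.415 (median 0.0112). The common biological coefficient of variation was 0.0639 with 8 residual degrees of freedom. SE is the absolute log2 fold change over the root of F. Genes named outside the lists and markers are the 12 highest and 8 lowest by log2 fold change against the hormone classes, the 10 highest and 10 lowest against corticotropes and the 8 highest against non-endocrine cells. They had an adjusted p under 0.05, the same direction in both libraries and a higher side of 50 CPM or more. Predicted, mitochondrial and gate genes were left out. Ratios to the next highest class are descriptions. Alternatives were DESeq2 1.42.0, other scalings, no low-count filter, no replicate block, shifted gates, removal of barcodes with markers of another class, 1 summed column for the other side and each library alone. A bound takes 3 UMIs over a class as its floor, which for melanotropes is 2.68 CPM. Python 3.11.15 with NumPy 2.4.6, pandas 2.3.3 and SciPy 1.17.1 made the tables. The script was tested on simulated data. Some genes are not reported here.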

Additional observations from a re-analysis of the deposited data

Results flagged for a closer look

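Pax7 was also found in barcodes outside the compared classes. It had a UMI in 1.61% of the 1430 kept barcodes that passed no class gate, 23 barcodes, against 0 of 283 endothelial cells and 1.54% of 521 corticotropes. Of those 23, 9 and 3 lay in the groups of 17 and 8 barcodes given next, and the other 1405 barcodes of no class held 11, or 0.783%. It had a UMI in 52.9% of the 17 barcodes with 2 to 20% Pomc and at least 3 Pcsk2 UMIs, whose median depth was 5228 UMIs. It also had a UMI in 37.5% of the 8 barcodes that met the Pomc and Pcsk2 limits but held 10% or more Gh or Prl, whose median depth was 10949 UMIs. These barcodes stood out because Pax7 lay above its level in endothelial cells, which should lack it.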

How the results depend on the processing

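For the genes named in the text, 190 results were recomputed under the alternatives, which gave 2279 tests. None reversed. With 1 library left out, which allows no test, 140 fold changes moved by more than 1 SE. Of these genes, 9 results lost the call in at least 1 alternative, among them Crisp1 in all 3 comparisons with DESeq2, Pcsk1n against corticotropes, and Chgb, Igfbp5, Pcsk1 and Pcsk1n against the hormone classes, where the adjusted p of Pcsk1 reached 0.359. The cause was not tested. With no replicate block the counts were 1171 higher and 943 lower against the hormone classes. DESeq2 gave 1523 higher and 595 lower there and moved the median of all genes by 0.134 on the log2 scale. Without TMM the third comparison gave 3787 higher and 1538 lower, with a shift of 0.213. With 1 summed column for the other side, 3027 genes were higher and 3452 lower than in non-endocrine cells. The share of melanotropes was 1.37% with Pomc over 30% and 1.2% with 6 or more Pcsk2 UMIs. With no thinning, the mean shares of melanotropes with a UMI were 36.2% for Pax7, 67.4% for Pkib, 39.0% for Slitrk6, 39.3% for Megf11, 18.4% for Crisp1 and 85.8% for Oacyl. Leaving out a library left 1 sample a class and no test, so only genes at 50 CPM or more with a 2-fold difference of means were counted. Against the hormone classes they were 154 higher and 197 lower with both libraries, 165 and 234 without replicate 2, and 174 and 207 without replicate 1. The share of melanotropes ran from 1.54 to 1.77%. With 225 cells, a gene at 0 UMIs in melanotropes is bounded only by the 3-UMI floor of 2.68 CPM, and genes with 1 to 3 UMIs have wide counting intervals.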
